A study of Macaca fascicularis with 8 samples.

Results

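NODAL and activin are secreted ligands of the transforming growth factor beta (TGF-beta) family that maintain primed pluripotency and pattern the early embryo. They bind type I and type II receptor kinases, NODAL with the help of the membrane co-receptor TDGF1 (also called CRIPTO), and the receptors activate SMAD2 and SMAD3, which act in the nucleus with SMAD4 and partners such as FOXH1. The pathway induces several of its own inhibitors, so that LEFTY proteins, cerberus (CER1), follistatin (FST) and SMAD7 restrain it. The 10 genes described here are the ligands NODAL, GDF3 and INHBA, the co-receptor TDGF1, the antagonists LEFTY1, LEFTY2, CER1 and FST, the DNA-binding partner FOXH1 and the inhibitor SMAD7. They were chosen by name, and 9 of the 10 were paired with a row among the 33121 genes of the deposited table. No row was paired with LEFTY1, which is not analysed here, and INHBA lay below the filter on low values, so that 8 genes were tested.

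Messenger RNA had been sequenced from embryonic stem cells (ESCs) of the cynomolgus monkey, Macaca fascicularis, in 4 libraries of dome-shaped and 4 of primed ESCs. Dome-shaped ESCs were grown in a medium named NHSMV, with LIF at 10 ng/ml, basic FGF at 8 ng/ml, TGF-beta 1 at 1 ng/ml, insulin, vitamin C and 5 kinase inhibitors, and tolerated passage as single cells. The inhibitors were PD0325901 at 1 µM (against MEK), CHIR99021 at 3 µM (against GSK3), SB202190 at 5 µM and SB203580 at 10 µM (both against p38) and SP600125 at 10 µM (against JNK). Primed ESCs formed flat colonies in CESM, a mix of a commercial human stem cell medium and conventional monkey ESC medium whose growth factors the labels do not list, and survived single-cell passage weakly. Medium, colony shape and group coincide and cannot be told apart. The labels do not say whether the libraries came from separate cultures or animals, so p-values measure only the spread between these libraries. Titles carry a number after CES whose meaning is not given: dome-shaped replicates 1 and 2 and primed replicate 1 share number 1, dome-shaped replicate 3 and primed replicate 2 share number 2, and dome-shaped replicate 4 and primed replicates 3 and 4 share number 3.

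The RPKM values, read counts scaled to gene length and library size, implied 14402450 to 17676950 reads per dome-shaped library and 16359000 to 18077000 per primed library. On the first principal component dome-shaped replicates 1 to 3 scored 40.7 to 41.1, dome-shaped replicate 4 scored 9.92, and primed libraries scored -37.0 to -28.6, so results that rest on replicate 4 are given with and without it. Pluripotency markers were present in every library, with SOX2 at 219 to 322 RPKM in dome-shaped and 172 to 273 RPKM in primed ESCs, and NANOG at 53.4 to 113 and 116 to 163 RPKM. Of the 6 pluripotency markers with a row (of 8 listed) 3 were called lower in dome-shaped ESCs by the test described below and none higher. These were DPPA4 (means of 216 and 402 RPKM in dome-shaped and primed ESCs, limma adjusted p = 0.0409), TERT (2.40 and 4.603 RPKM, adjusted p = 0.0233) and ZFP42 (52.3 and 88.5 RPKM, adjusted p = 0.0078). The 6 together summed to 1359 to 1722 RPKM in dome-shaped and 1783 to 2040 RPKM in primed libraries, without overlap. LIN28A made up the largest part of the sum, with means of 868 RPKM in dome-shaped and 1087 RPKM in primed ESCs, and was not called (limma adjusted p = 0.0608). The mean of SOX2 went the other way, with 264 RPKM in dome-shaped and 219 RPKM in primed ESCs, and was not called either. RNA was taken from whole cultures, so fewer cells of a type and less RNA per cell cannot be told apart.

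FST rose and TDGF1 fell in dome-shaped relative to primed ESCs, and the other 6 tested genes were not called. Calls are those of limma on log2(RPKM + 1) with a Benjamini-Hochberg adjusted p below 0.05 over all genes tested. Of the 8 tested genes 1 rose and 1 fell, or 25% in all, against 14.3% of all 15597 genes tested, 6.38% higher and 7.96% lower. With 8 genes these shares are a description. FST and TDGF1 were also the only tested genes of the 8 whose groups did not overlap, as was the case for 22.2% of all genes tested (11.5% with dome-shaped libraries higher and 10.7% with them lower). The median log2 fold change of the 8 genes was -0.57, against 0.03 over all genes tested.

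**Figure D1:**
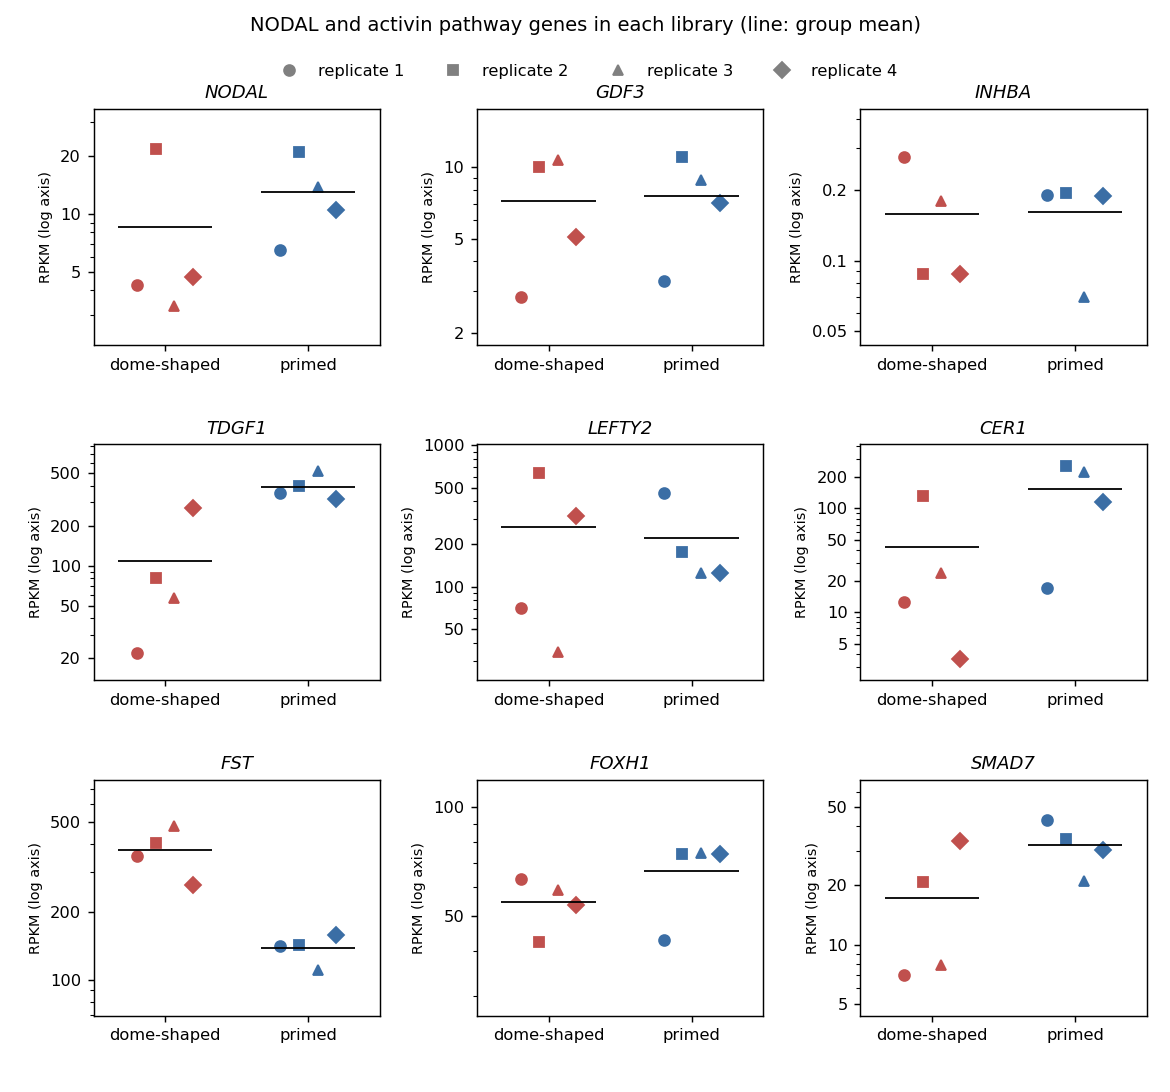
RPKM on a log axis in each library for the 9 genes with a row; each panel has its own axis, dome-shaped libraries stand left of primed ones, the symbol gives the replicate number and the line the group mean. Only FST and TDGF1 separate the groups among the tested genes, and NODAL, LEFTY2 and CER1 spread over more than the distance between the group means.

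FST codes for follistatin, a secreted protein that binds activin with high affinity and keeps it from its receptors. FST (row ENSMMUG00000004860) had 353, 403, 482 and 262 RPKM in dome-shaped replicates 1 to 4, against 141, 143, 111 and 158 RPKM in primed replicates 1 to 4. Every dome-shaped library was above every primed one, and the lowest of the dome-shaped libraries was replicate 4. The means were 375 ± 92.2 RPKM in dome-shaped and 138 ± 19.6 RPKM in primed ESCs (SD, n = 4 each), a ratio of 2.72 (log2 fold change 1.41, SE 0.18, 95% interval 1.01 to 1.81, limma adjusted p = 0.00252). Leaving out any 1 library kept the call, with log2 fold changes of 1.28 to 1.57 and adjusted p of 0.00054 to 0.0116. Within libraries that share the number after CES, the log2 difference was 1.41 for number 1, 1.75 for number 2 and 0.98 for number 3. In dome-shaped ESCs FST stood higher than 98.5% of tested genes, and in primed ESCs higher than 94.8%.

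INHBA, the beta A chain whose dimer is activin A, a ligand that follistatin binds, was close to absent from both groups. It had 0.275, 0.0876, 0.178 and 0.0876 RPKM in dome-shaped replicates 1 to 4, against 0.190, 0.193, 0.0698 and 0.188 RPKM in primed replicates 1 to 4. Those values correspond to 7, 2, 5 and 2 reads in dome-shaped and 5, 5, 2 and 5 reads in primed libraries, or 16 and 17 reads in all. The exact 95% Poisson interval runs from 2.81 to 14.4 around 7 reads and from 0.242 to 7.22 around 2 reads and covers counting error only, so a difference was not detectable at this depth. The beta B chain gene INHBB reached at most 0.0263 RPKM in dome-shaped and 0.272 RPKM in primed libraries. On the RPKM scale FST exceeded INHBA by 1284 to 4599 times in dome-shaped and by 739 to 1590 times in primed libraries, with the denominators resting on the few reads above.

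TDGF1, the co-receptor that brings NODAL and GDF3 to the receptor complex and a widely used marker of undifferentiated cells, was lower in dome-shaped ESCs. TDGF1 (row ENSMMUG00000003088) had 21.8, 80.1, 57.0 and 273 RPKM in dome-shaped replicates 1 to 4, against 352, 400, 515 and 317 RPKM in primed replicates 1 to 4. The groups did not overlap, but dome-shaped replicate 4 lay close to the lowest primed library while replicate 1 lay far below it. The means were 108 ± 112 RPKM in dome-shaped and 396 ± 86.5 RPKM in primed ESCs (SD, n = 4 each), with a log2 fold change of -2.41 (SE 0.61, 95% interval -3.78 to -1.04, limma adjusted p = 0.0313). Without dome-shaped replicate 4 the log2 fold change was -3.04 (limma adjusted p = 0.00217), and without dome-shaped replicate 1 it was -1.84 (adjusted p = 0.0424). The call was lost without dome-shaped replicate 2 (adjusted p = 0.0709) or 3 (adjusted p = 0.0819), and without primed replicate 1 (adjusted p = 0.0538), 2 (adjusted p = 0.0742), 3 (adjusted p = 0.0776) or 4 (adjusted p = 0.0608), and with no filter on low values (adjusted p = 0.0586). The summed pluripotency markers given above, of which LIN28A made up the largest part, were also lower in dome-shaped libraries. Their part in the TDGF1 result was not tested. TDGF1 was lower in dome-shaped libraries for each number after CES, by -3.04 for number 1, -2.79 for number 2 and -0.57 for number 3. The related co-receptor CFC1 (cryptic) had 4.89, 0.504, 1.85 and 1.85 RPKM in dome-shaped and 2.19, 20.3, 11.1 and 28.01 RPKM in primed replicates 1 to 4 (log2 fold change -2.09, SE 0.66, limma adjusted p = 0.0631).

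**Figure D2:**
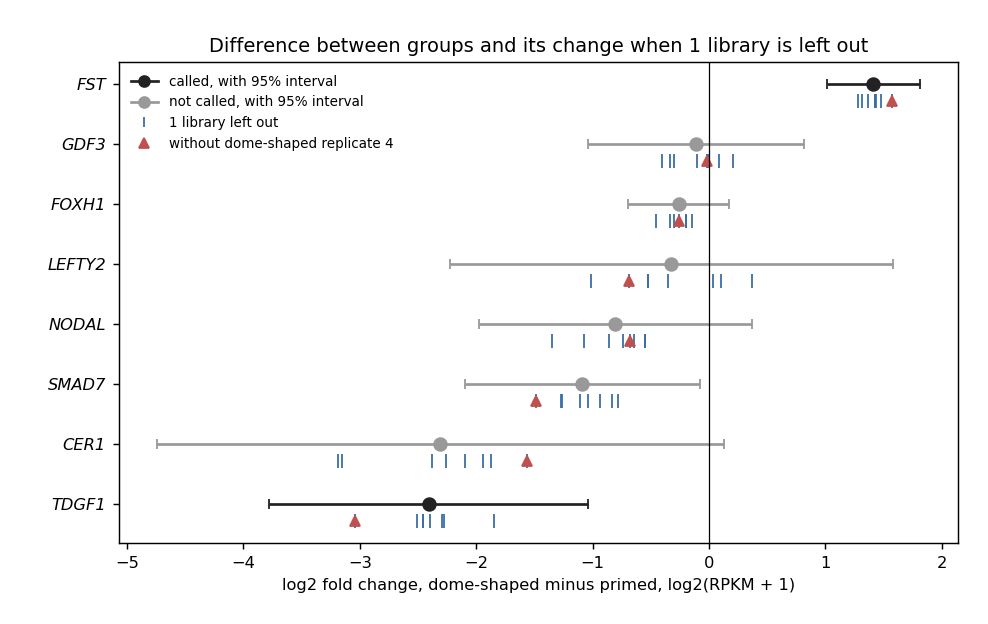
Log2 fold change, dome-shaped minus primed, on the log2(RPKM + 1) scale for the 8 tested genes, with 95% intervals from limma; black points were called, ticks below each point are the fits without 1 library and the triangle is the fit without dome-shaped replicate 4. FST keeps a narrow interval above 0, and the intervals of CER1, LEFTY2 and NODAL are wide and include 0.

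The ligand NODAL varied within both groups, with a mean above that of 40.1% of tested genes in dome-shaped and 50.3% in primed ESCs. NODAL (row ENSMMUG00000023170) had 4.26, 21.8, 3.33 and 4.71 RPKM in dome-shaped replicates 1 to 4, against 6.45, 20.9, 13.8 and 10.5 RPKM in primed replicates 1 to 4. Of the dome-shaped libraries 3 were below every primed library and replicate 2 was above every one of them. The values correspond to 98 to 570 reads per library. The log2 fold change was -0.81 (SE 0.52, 95% interval -1.98 to 0.37, limma adjusted p = 0.321), and without dome-shaped replicate 2 it was -1.35 and passed the threshold (adjusted p = 0.0483). GDF3, a related ligand that also signals through TDGF1, had 2.83, 10.1, 10.8 and 5.09 RPKM in dome-shaped and 3.32, 11.02, 8.82 and 7.09 RPKM in primed replicates 1 to 4. The GDF3 groups overlapped almost fully, with a log2 fold change of -0.11 (95% interval -1.04 to 0.82, limma adjusted p = 0.882), whose sign turned without dome-shaped replicate 1 or primed replicate 2. The ratio of GDF3 to NODAL was 0.664, 0.462, 3.24 and 1.08 in dome-shaped replicates 1 to 4, against 0.515 to 0.678 in primed libraries. GDF3 thus exceeded NODAL in dome-shaped replicates 3 and 4 and in no primed library.

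LEFTY2, a secreted antagonist that blocks NODAL and its co-receptor, was among the more abundant genes of both groups. LEFTY2 (row ENSMMUG00000011435) had 70.9, 633, 34.8 and 318 RPKM in dome-shaped replicates 1 to 4, against 460, 176, 125 and 124 RPKM in primed replicates 1 to 4. Dome-shaped libraries thus held both the highest and the lowest values, with an 18.2-fold range, against a 3.70-fold range in primed libraries. The log2 fold change was -0.33 (SE 0.85, 95% interval -2.23 to 1.58, limma adjusted p = 0.823), and its sign turned without dome-shaped replicates 1 or 3 or primed replicate 1. In the deposited protein matches, over 366 residues, the protein predicted from this row was 100% identical to LEFTY2 of Macaca mulatta. It was 99.7% identical to M. fascicularis LEFTY2 and 96.2% identical to M. fascicularis LEFTY1. Reads of the near-identical LEFTY1 may therefore have been counted with LEFTY2 or lost as ambiguous, and LEFTY2 values are uncertain to that extent.

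CER1, cerberus, is a secreted antagonist of NODAL and BMP made by anterior endoderm in the embryo. CER1 (row ENSMMUG00000012428) had 12.7, 132, 23.8 and 3.54 RPKM in dome-shaped replicates 1 to 4, against 17.0, 259, 223 and 116 RPKM in primed replicates 1 to 4. The primed libraries split into replicate 1 and the others, and dome-shaped replicates 2 and 3 lay within the primed range. The log2 fold change was -2.31, close to that of TDGF1, but its SE was 1.08 and the 95% interval ran from -4.75 to 0.13 (limma adjusted p = 0.178), and no fit without 1 library called it (adjusted p of 0.066 to 0.347). For number 1 after CES CER1 was higher in dome-shaped libraries, by 1.24, and for numbers 2 and 3 it was lower, by -3.39 and -5.16. Endoderm markers moved with it in part. The summed level of the 6 endoderm markers with a row (of 9 listed) was 7.89 to 81.1 RPKM in dome-shaped and 53.5 to 104 RPKM in primed libraries. Dome-shaped replicate 4, lowest in CER1, had the lowest sum, but the other dome-shaped libraries did not follow CER1. The highest dome-shaped sum, 81.1 RPKM, was that of replicate 1, where CER1 stood at 12.7 RPKM. Replicate 2, the dome-shaped library highest in CER1, had a sum of 48.2 RPKM, against 60.6 RPKM in replicate 3. Of these 6 genes FOXA2 fell (7.37, 4.54, 7.75 and 0.793 RPKM in dome-shaped, 30.4, 39.7, 23.0 and 26.9 RPKM in primed replicates 1 to 4, limma adjusted p = 0.00901) and none rose. SOX17, GATA6 and GATA4 stood at 0.409, 0.467 and 0.587 RPKM in dome-shaped replicate 4. The part of such cells in the CER1 result was not tested.

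The 3 secreted antagonists made up different mixtures in the libraries. FST held 80.8%, 34.5%, 89.2% and 45.0% of their summed RPKM in dome-shaped replicates 1 to 4, against 22.8%, 24.7%, 24.2% and 39.6% in primed replicates 1 to 4. In dome-shaped replicates 2 and 4 the larger share was that of LEFTY2. The sum itself was 437 to 1168 RPKM in dome-shaped and 398 to 618 RPKM in primed libraries, against summed ligands (NODAL, GDF3 and INHBA) of 7.36 to 32.0 and 9.96 to 32.1 RPKM.

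**Figure D3:**
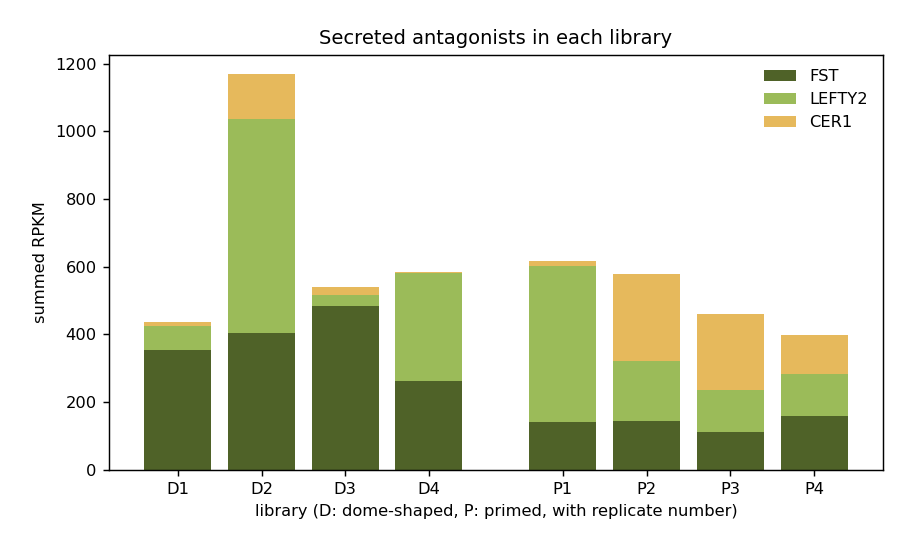
Summed RPKM of FST, LEFTY2 and CER1 in each library, with dome-shaped libraries (D1 to D4) left of primed ones (P1 to P4). FST forms the largest block in D1, D3 and P4, LEFTY2 in D2, D4 and P1, and CER1 in P2 and P3.

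FOXH1, the forkhead protein that carries SMAD2 and SMAD4 to NODAL-responsive enhancers, was not called. FOXH1 (row ENSMMUG00000002663) had 63.1, 42.4, 58.97 and 53.5 RPKM in dome-shaped replicates 1 to 4, against 43.0, 74.0, 74.6 and 74.0 RPKM in primed replicates 1 to 4. The 3 primed libraries other than replicate 1 stood above every dome-shaped library. The log2 fold change was -0.26 (SE 0.19, 95% interval -0.69 to 0.17, limma adjusted p = 0.386). Its lowest adjusted p among the fits without 1 library was 0.0548.

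SMAD7, which occupies activated type I receptors and recruits ubiquitin ligases to them, is induced by the pathway that it inhibits. SMAD7 (row ENSMMUG00000012770) had 6.98, 20.7, 7.88 and 33.5 RPKM in dome-shaped replicates 1 to 4, against 43.2, 34.5, 21.2 and 30.3 RPKM in primed replicates 1 to 4. Dome-shaped replicates 1 to 3 were below every primed library, and replicate 4 was within the primed range. The log2 fold change was -1.09 (SE 0.45, 95% interval -2.10 to -0.08, limma adjusted p = 0.133). Without dome-shaped replicate 4 it was -1.48 and passed the threshold (limma adjusted p = 0.0266).

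Except for FST and FOXH1, the tested genes varied widely within groups. The residual SD about the group means was larger for CER1 than for 99.9% of tested genes, and for LEFTY2, TDGF1, NODAL, SMAD7 and GDF3 it was larger than for 99.8%, 99.2%, 98.5%, 97.4% and 96.4%. For FST and FOXH1 these shares were 70.3% and 73.7%. The libraries did not order these genes alike. NODAL and CER1 were both highest in replicate 2 of each group and, within primed ESCs, lowest in replicate 1, whereas LEFTY2 and SMAD7 were highest in that primed replicate. LEFTY2 exceeded NODAL by 67.5 times in dome-shaped replicate 4 and by 71.3 times in primed replicate 1, against 10.5 to 29.1 times in the other dome-shaped and 8.43 to 11.9 times in the other primed libraries. The homeobox genes GSC and LHX1, which NODAL signalling induces in mesendoderm and which were singled out after their values were seen, were ordered more like CER1. GSC had 1.06, 12.02, 4.11 and 0.498 RPKM in dome-shaped and 2.17, 22.1, 25.7 and 12.4 RPKM in primed replicates 1 to 4. LHX1 had 0.287, 8.15, 3.86 and 0.320 RPKM in dome-shaped and 2.88, 25.1, 31.4 and 9.95 RPKM in primed replicates 1 to 4. For both, as for CER1, replicate 2 was the highest dome-shaped library and replicate 1 the lowest primed one, and neither was called (limma adjusted p = 0.171 and 0.094).

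**Figure D4:**
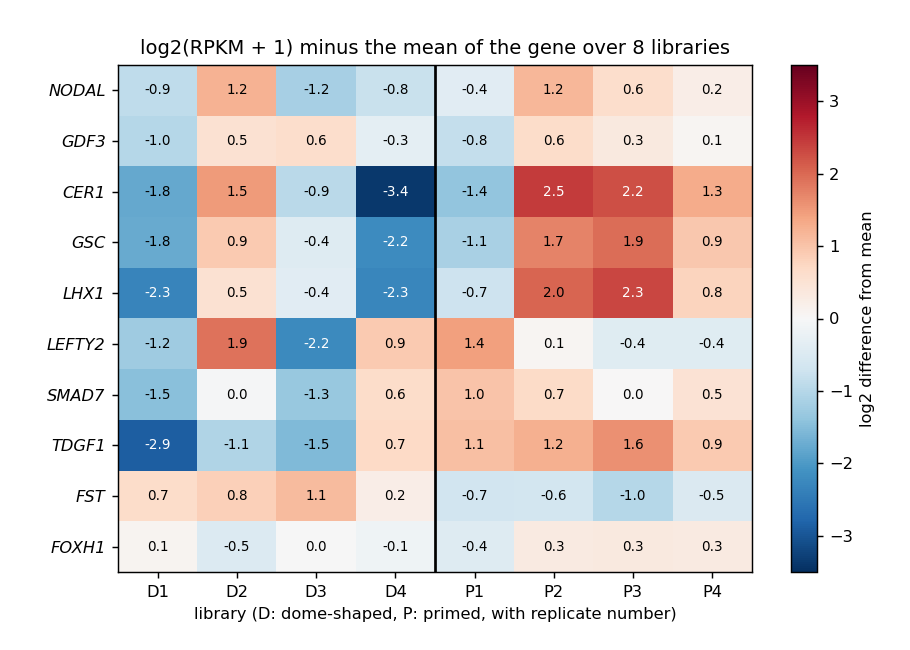
Log2(RPKM + 1) of each gene minus its mean over the 8 libraries, with dome-shaped libraries (D1 to D4) left of primed ones (P1 to P4). CER1, GSC and LHX1 are low in D1, D4 and P1, LEFTY2 is high in D2, D4 and P1, and FST separates the groups.

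In each group the levels could be ranked only in steps. In dome-shaped ESCs the mean RPKM ran from FST through LEFTY2, TDGF1, FOXH1, CER1, SMAD7 and NODAL to GDF3, each overlapping in range with the next, and INHBA lay below all of them without overlap. In primed ESCs the order was TDGF1, LEFTY2, CER1, FST, FOXH1, SMAD7, NODAL, GDF3 and INHBA, with gaps between the ranges of FST and FOXH1, of SMAD7 and NODAL, and of GDF3 and INHBA. TDGF1 thus had the highest mean of these genes in primed ESCs and the third in dome-shaped ESCs, whereas FST had the highest mean in dome-shaped ESCs and stood behind TDGF1, LEFTY2 and CER1 in primed ESCs.

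Among genes named in the deposited table with a mean of at least 5 RPKM (2341 genes), the highest Pearson correlations with NODAL over the 8 libraries were those of KRR1 (0.864), CER1 (0.860), GMEB1 (0.828), PPFIBP1 (0.811) and FKBP11 (0.809). For FST they were ST8SIA1 (0.980), NSDHL (0.973), RANBP6 (0.962), LPHN2 (0.959) and SRPX (0.957). The libraries share the group difference, so for FST these values describe mainly genes that separate the groups. For NODAL, values picked as the highest among 2341 genes over 8 libraries can be high by selection alone, and they were not tested. ST8SIA1, a ganglioside sialyltransferase, averaged 9.34 RPKM in dome-shaped and 1.94 RPKM in primed ESCs, and NSDHL, an enzyme of cholesterol synthesis, 53.1 and 40.5 RPKM.

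Other genes of the pathway changed in both directions. A list of 55 further genes gave 45 with a row and 40 tested, of which 3 rose and 5 fell, or 20% against the 14.3% of all genes. The median log2 fold change of the 40 was -0.28. Only 1 of the 7 listed ligands, GDF11, was tested, and it was not called. GDF1, TGFB1 and TGFB2 had no row. Among ligands, GDF11 stood at 12.3 ± 2.79 RPKM in dome-shaped and 9.46 ± 1.77 RPKM in primed ESCs (SD, n = 4 each, limma adjusted p = 0.259), and TGFB3, INHBB and MSTN lay below the filter. Of the 2 convertases, which cleave the precursors of such ligands, FURIN fell, with 16.0, 13.8, 12.3 and 11.03 RPKM in dome-shaped and 19.4, 31.1, 31.0 and 27.7 RPKM in primed replicates 1 to 4 (log2 fold change -0.98, SE 0.17, limma adjusted p = 0.00785). It was called in each fit without 1 library. PCSK5 stood at 3.85 ± 2.06 and 3.44 ± 1.57 RPKM in dome-shaped and primed ESCs.

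Of 5 tested receptor genes 1 rose and 1 fell. TGFBR1, the type I receptor of TGF-beta, rose, with 62.5, 88.7, 77.1 and 62.9 RPKM in dome-shaped and 52.0, 55.6, 46.9 and 55.5 RPKM in primed replicates 1 to 4 (log2 fold change 0.45, SE 0.12, limma adjusted p = 0.0378). TGFBR3, betaglycan, a co-receptor that presents TGF-beta 2 and inhibin, fell to 1.54, 2.07, 3.997 and 2.69 RPKM in dome-shaped replicates 1 to 4, against 7.45, 7.55, 11.4 and 5.38 RPKM in primed replicates 1 to 4 (log2 fold change -1.33, SE 0.26, limma adjusted p = 0.0116). The activin and NODAL receptors ACVR1B (17.3 ± 2.26 and 21.0 ± 1.32 RPKM in dome-shaped and primed ESCs, limma adjusted p = 0.133) and ACVR2B (38.9 ± 3.27 and 49.4 ± 8.47 RPKM, adjusted p = 0.109; SD, n = 4 each) were not called. The TGFBR1 call was lost without dome-shaped replicates 2 or 3 or any primed library (adjusted p up to 0.0963), and with no filter on low values (adjusted p = 0.06).

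SMAD3 rose among 5 tested signal transducers, with 15.7, 22.2, 15.8 and 12.4 RPKM in dome-shaped and 11.9, 8.34, 3.59 and 6.09 RPKM in primed replicates 1 to 4 (log2 fold change 1.12, SE 0.30, limma adjusted p = 0.0372). Dome-shaped replicate 4 and primed replicate 1 lay close together, and of the fits without 1 library those without dome-shaped replicate 4 and primed replicate 1 kept the call (adjusted p up to 0.0988 in the others). With no filter on low values it was lost (limma adjusted p = 0.0657). SMAD2, which shares receptors with SMAD3, stood at 36.2 ± 2.86 RPKM in dome-shaped and 36.1 ± 2.10 RPKM in primed ESCs (SD, n = 4 each), and SMAD4 at 39.0 ± 3.48 and 33.4 ± 1.70 RPKM (limma adjusted p = 0.118).

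FSTL1, a secreted glycoprotein related to follistatin, rose among 3 tested extracellular antagonists, with 321, 382, 369 and 289 RPKM in dome-shaped and 271, 185, 176 and 173 RPKM in primed replicates 1 to 4 (log2 fold change 0.77, SE 0.15, limma adjusted p = 0.0128), a call that each fit without 1 library kept. The pseudoreceptor BAMBI stood at 18.4 ± 6.93 RPKM in dome-shaped and 36.7 ± 15.8 RPKM in primed ESCs (SD, n = 4 each, limma adjusted p = 0.0852) and the inhibin alpha gene INHA at 0.756 ± 0.273 and 1.18 ± 0.263 RPKM. Of 4 nuclear repressors DRAP1, which in mice binds Foxh1 and limits Nodal signalling, fell to 61.3 ± 5.41 RPKM in dome-shaped ESCs, against 75.2 ± 2.53 RPKM in primed ESCs (log2 fold change -0.29, SE 0.08, limma adjusted p = 0.0351). TGIF1 had 96.97, 105, 95.1 and 174 RPKM in dome-shaped and 162, 160, 177 and 165 RPKM in primed replicates 1 to 4 (limma adjusted p = 0.0677), and SKI averaged 33.1 and 33.6 RPKM. Of 6 degradation and feedback genes LDLRAD4, a membrane protein that restrains SMAD2 and SMAD3 activation, fell to 1.54 ± 0.153 RPKM, against 3.23 ± 1.13 RPKM in primed ESCs (log2 fold change -0.70, SE 0.20, limma adjusted p = 0.0457). PPM1A averaged 30.3 ± 1.46 and 33.02 ± 1.28 RPKM and NEDD4L 20.6 and 21.8 RPKM in dome-shaped and primed ESCs. The call of DRAP1 held without dome-shaped replicate 1 or 4 and was lost without any other library (limma adjusted p up to 0.0942). That of LDLRAD4 held only without primed replicate 4 and was lost in the other 7 such fits (adjusted p up to 0.108), with no filter on low values (adjusted p = 0.0796) and under quantile normalization (adjusted p = 0.0858).

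Of 13 tested target genes 1 fell and none rose. WNT3, a WNT ligand that acts with Nodal in the mouse primitive streak, fell to 0.776, 0.814, 0.705 and 0.305 RPKM in dome-shaped replicates 1 to 4, against 1.37, 3.85, 2.64 and 4.03 RPKM in primed replicates 1 to 4 (log2 fold change -1.22, SE 0.26, limma adjusted p = 0.0163), a call lost without primed replicate 2 (adjusted p = 0.0519). WNT3 reached 1 RPKM only in primed libraries, so it passed the filter on low values only through the group where it was higher. That fixed the lack of overlap between its groups, which is no further support. With no filter on low values WNT3 was still called (limma adjusted p = 0.0309). CTGF, a target of SMAD and YAP signalling, had 33.3, 140, 57.0 and 315 RPKM in dome-shaped and 268, 510, 284 and 288 RPKM in primed replicates 1 to 4 (limma adjusted p = 0.0799), with dome-shaped replicate 4 inside the primed range. TAGLN, a smooth muscle actin-binding protein, averaged 539 ± 133 RPKM in dome-shaped and 492 ± 388 RPKM in primed ESCs (SD, n = 4 each, limma adjusted p = 0.577). The mesendoderm factor EOMES, also singled out after its values were seen, had 3.27, 19.3, 22.0 and 8.10 RPKM in dome-shaped and 8.46, 26.2, 26.4 and 12.1 RPKM in primed replicates 1 to 4 (limma adjusted p = 0.503). Without dome-shaped replicate 4 the list gave 3 higher and 8 lower genes, and all 15597 genes gave 1289 higher and 1441 lower. The higher count was 1 without dome-shaped replicates 2 or 3 or primed replicates 2, 3 or 4, and the lower count was 2 without primed replicate 2 and 3 without dome-shaped replicates 2 or 3 or primed replicate 3. The counts over all genes fell in the same fits, to 381 to 516 higher and 655 to 834 lower, against 995 and 1242 with all libraries.

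**Figure D5:**
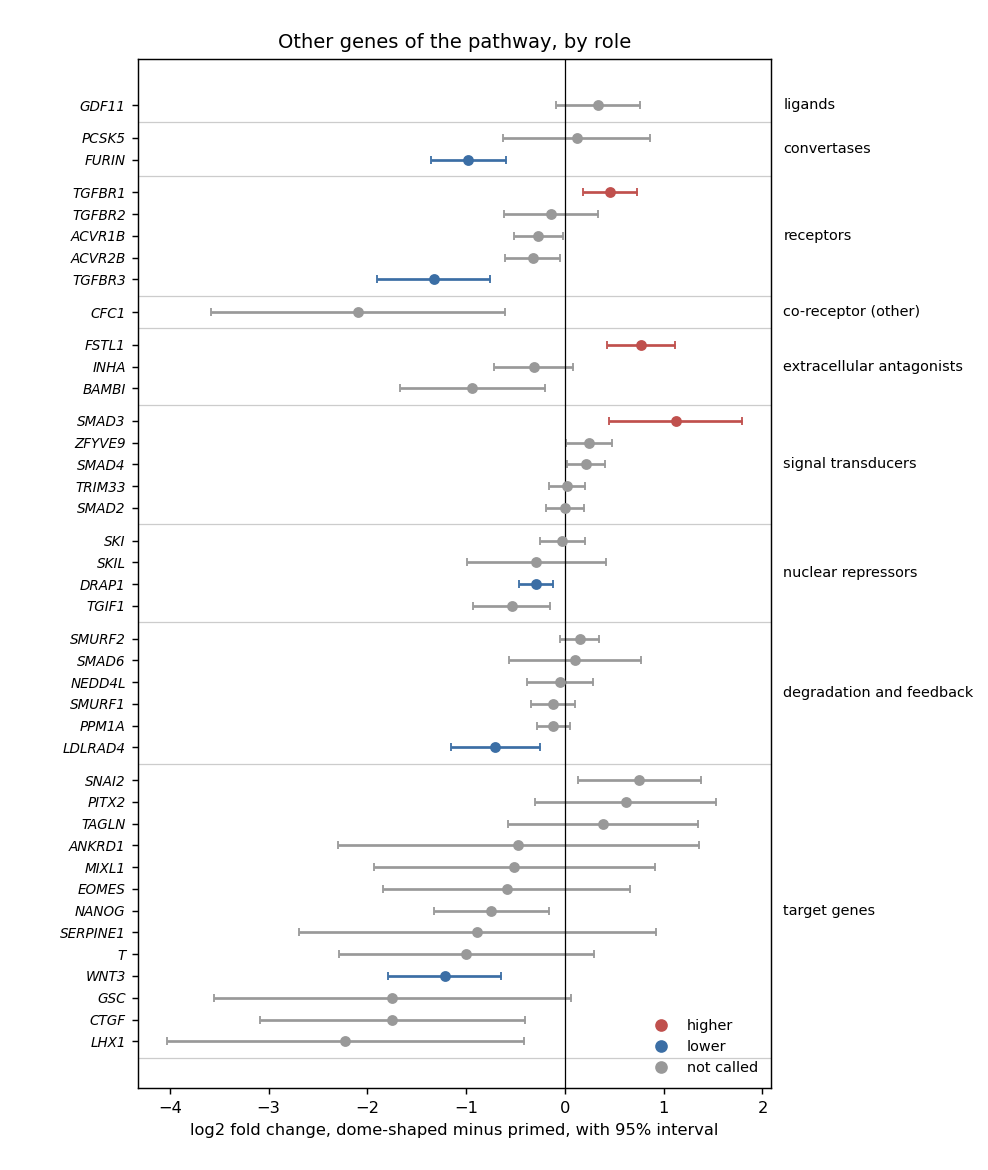
Log2 fold change, dome-shaped minus primed, with 95% intervals from limma for the 40 tested genes of the pathway outside the 10 named first, grouped by role; red genes were higher, blue genes lower and grey genes not called. Target genes carry the widest intervals.

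Markers of other cell types moved with the groups in part. The neural markers FABP7 and GBX2 rose. FABP7 was at most 0.886 RPKM in primed libraries and so passed the filter on low values only through the group where it was higher. The 3 neural markers with a row (of 4 listed) summed to 26.8 to 99.99 in dome-shaped and 4.15 to 7.87 RPKM in primed libraries. GBX2 made up most of these sums, with 23.3 to 95.8 RPKM in dome-shaped and 2.54 to 7.03 RPKM in primed libraries. PAX6 was at most 0.351 RPKM in dome-shaped and 1.55 RPKM in primed libraries. The 6 primitive streak and mesoderm markers summed to 8.62 to 51.8 RPKM in dome-shaped and 19.5 to 80.5 RPKM in primed libraries, and 1, HAND1, fell. HAND1 was at most 0.717 RPKM in dome-shaped libraries and likewise passed the filter only through the group where it was higher. The 5 trophoblast markers summed to 9.39 to 13.9 and 26.7 to 48.3 RPKM, with CGA at 0 in every dome-shaped library and KRT7 called lower. The 4 fibroblast markers with a row (of 7) summed to 10.4 to 22.9 and 15.5 to 52.4 RPKM, mostly THY1, and DCN was at most 0.126 RPKM in dome-shaped and 0.0373 RPKM in primed libraries. LUM stood at 11.8 RPKM in primed replicate 3, against 0.0332 to 0.130 RPKM in the other primed libraries. In dome-shaped libraries LUM was at most 0.574 RPKM. Of the 3 tested trophoblast markers the other two, GATA3 and TFAP2C, were not called (limma adjusted p = 0.204 and 0.323). PAX6 and CDX2, below the filter, averaged 0.233 and 0.719 RPKM in dome-shaped and 0.5999 and 0.438 RPKM in primed ESCs. The part of any of these cell types in the FST and TDGF1 results was not tested.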

How the data were processed

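Fragments of messenger RNA were copied into cDNA from random primers, per the labels' protocols, and read on an Illumina sequencer. HTSeq 0.6.1, TopHat2 2.0.9 and Bowtie2 2.0.6 are named, per the submitters' processing notes. For strand handling, build and annotation release, nothing is given in the sources used here. Of the 33121 genes, 30246 carry identifiers that begin with ENSMMUG, the Ensembl prefix for the rhesus monkey, Macaca mulatta, and not for M. fascicularis. The authors deposited RPKM values for 8 libraries, with a percent identity for each protein match; 17 of 33138 rows were blank and left out. Columns of other samples numbered 0. The columns of dome-shaped replicates 1, 2 and 3 lacked the end of their titles and were assigned because no other free title began alike. Replicates are numbered in accession order.

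A gene was paired with the row of its name or, failing that, with the row whose best protein match names it at 85% identity or more, with at least 100 aligned residues for genes other than the 10. Of several rows the one with the highest mean was used. RPKM multiplied by query length was whole, within 0.01 of a read, for 71.9% to 73.7% of values under 50 reads, which gave the implied depth. This is not nearly all values, so no count test was run. Intervals on reads cover counting error only.

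Genes at 1 RPKM or more in at least 4 libraries were tested with limma 3.58.1 in R 4.3.3 (mean trend, two-sided) on log2(RPKM + 1), a scale that understates changes of low genes. The procedure was tested on simulated data. The genes and lists were chosen with earlier results of these data known. Named beside the 10 were every called gene of the list and up to 2 uncalled ones per role with the highest mean; exceptions are stated.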

Additional observations from a re-analysis of the deposited data

Results flagged for a closer look

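In groups of 4 libraries, a library was marked where its gap to the nearest other, as a share of the group's range of log2(RPKM + 1), exceeded Dixon's 95% critical value, which chance does for about 1 in 20 groups. Of 18 groups for the 9 genes 3 were marked, and of 80 for the other pathway genes 3. NODAL stood at 21.8 RPKM in dome-shaped replicate 2, against 3.33 to 4.71 RPKM in the other dome-shaped libraries. INHBA stood at 0.0698 RPKM in primed replicate 3, against 0.188 to 0.193 RPKM in the other primed libraries, a difference between 2 and 5 reads. FOXH1 stood at 43.0 RPKM in primed replicate 1, against 74.0 to 74.6 RPKM in the others. FSTL1 stood at 271 RPKM in primed replicate 1, against 173 to 185 RPKM in the others. TGIF1 stood at 174 RPKM in dome-shaped replicate 4, against 95.1 to 105 RPKM in the other dome-shaped libraries and 160 to 177 RPKM in primed libraries. CTGF stood at 510 RPKM in primed replicate 2, against 268 to 288 RPKM in the others.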

How the results depend on the processing

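FST was called in all 15 alternatives run for it. TDGF1 kept its sign in all 15 but was not called with no filter on low values (log2 fold change -2.41, limma adjusted p = 0.0586), so that no member was called lower there (0). In a fit with a replicate block for the number after CES, TDGF1 was at -2.07 (adjusted p = 0.0803, again 0 members lower), the GDF3 log2 fold change was 0.0074, the other pathway genes gave 1 higher and 2 lower, and all genes gave 303 higher and 593 lower against 995 and 1242. Correlations of deviations from group means, averaged within group and number, were 0.0045, -0.015 and -0.092 for numbers 1 to 3. Within number 1, dome-shaped replicates 1 and 2 correlated at -0.096 and 0.125 with primed replicate 1. With so few libraries per number these values cannot show whether the libraries are paired, so the fits with and without the block are both given. Under that block the pathway calls of WNT3 (limma adjusted p = 0.0597), TGFBR1 (0.108), SMAD3 (0.0541), DRAP1 (0.0971) and LDLRAD4 (0.0971) were lost, and those of FURIN, TGFBR3 and FSTL1 were kept. The pathway list gave 1 higher with no filter, where 757 of 25576 genes were called higher. It gave 3 lower at a mean of at least 5 RPKM, where 828 of 11129 genes were called lower. Leaving out 1 library gave 381 to 1289 higher and 655 to 1441 lower genes, 0 to 2 members lower, 1 to 3 pathway genes higher and 2 to 8 lower, with log2 fold changes of -3.04 to -1.84 for TDGF1, -1.35 to -0.55 for NODAL, -1.48 to -0.78 for SMAD7, -0.41 to 0.21 for GDF3 and -1.02 to 0.37 for LEFTY2. The causes were not tested. NODAL had a further row at 0 RPKM in every library, which gave no value and left the sum of rows as it was; no other member had several. Protein and promoter sequences were not compared.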
